A study of Mus musculus with 12 samples.

Results

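The 9 genes described here, Plppr4, Fgf13, Unc79, Cadps, Vstm2b, Gpr50, Pla2g2e, Akr1cl and Serpinf1, were chosen because their RNA was higher in TET knockout than in wild-type mouse fat on a normal diet, and several of them are known from neurons. They are 9 of 25229 named genes in the deposited table. The rule that chose them used normal-diet values, which are given as a description only, and no high-fat values. Earlier results of these data were known when the genes and tests were chosen. The high-fat test also takes its estimate of spread from all libraries, including those on the normal diet. The RNA was from whole eWAT, the white fat pad beside the epididymis, taken from C57BL/6 mice. The 4 groups held 3 libraries each: wild type on a normal diet (ND_WT), TET KO on a normal diet (ND_TKO), wild type on a high-fat diet (HFD_WT) and TET KO on a high-fat diet (HFD_TKO). The series title places the ablation of TET proteins in adipocytes, but the alleles deleted, the promoter driving the deletion, the age and sex of the mice and the time on diet are not given in the sources used here.

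TET proteins are enzymes that oxidise 5-methylcytosine at CG dinucleotides and so start the removal of DNA methylation. The genes fall into 3 kinds by role. Plppr4, Fgf13, Unc79 and Cadps act in excitable and secretory cells: Plppr4 encodes PRG-1, a membrane protein of excitatory synapses that modulates bioactive phospholipid signals, Fgf13 an intracellular FGF homologous factor that binds voltage-gated sodium channels, Unc79 a large subunit of the NALCN sodium leak channel complex, and Cadps the protein CAPS, which primes dense-core vesicles for release. Gpr50 and Vstm2b encode membrane proteins, Gpr50 an orphan receptor related to the melatonin receptors that does not bind melatonin itself, and Vstm2b a protein with an immunoglobulin-like V-set domain. Pla2g2e, Akr1cl and Serpinf1 encode a secreted phospholipase A2, an enzyme of the aldo-keto reductase superfamily, and the secreted serpin PEDF, which restrains blood vessel growth and is made by adipocytes and stromal cells.

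Because TET enzymes act on CG dinucleotides, the promoters of the 3 genes whose high-fat result held under every alternative tried are shown first. Each is the RefSeq window of build GRCm38.p6 from 250 bases before to 50 bases after the annotated start, read 5′ to 3′ on the gene's strand, with CG dinucleotides in capitals: Plppr4 at chr3:117360827-117361126 on the minus strand, Vstm2b at chr7:40899028-40899327 on the plus strand and Gpr50 at chrX:71663417-71663716 on the plus strand.
Plppr4: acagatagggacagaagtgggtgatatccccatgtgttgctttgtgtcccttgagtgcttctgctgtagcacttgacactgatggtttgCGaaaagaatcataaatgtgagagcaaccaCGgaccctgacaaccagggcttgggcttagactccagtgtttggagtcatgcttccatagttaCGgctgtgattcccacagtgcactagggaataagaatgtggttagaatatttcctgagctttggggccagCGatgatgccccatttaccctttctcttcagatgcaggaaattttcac
Vstm2b: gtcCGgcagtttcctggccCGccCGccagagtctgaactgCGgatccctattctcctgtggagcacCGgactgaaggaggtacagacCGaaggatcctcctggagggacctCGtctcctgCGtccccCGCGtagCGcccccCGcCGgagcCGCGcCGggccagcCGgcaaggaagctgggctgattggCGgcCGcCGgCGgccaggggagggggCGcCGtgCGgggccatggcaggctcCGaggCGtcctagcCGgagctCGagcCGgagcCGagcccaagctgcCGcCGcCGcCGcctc
Gpr50: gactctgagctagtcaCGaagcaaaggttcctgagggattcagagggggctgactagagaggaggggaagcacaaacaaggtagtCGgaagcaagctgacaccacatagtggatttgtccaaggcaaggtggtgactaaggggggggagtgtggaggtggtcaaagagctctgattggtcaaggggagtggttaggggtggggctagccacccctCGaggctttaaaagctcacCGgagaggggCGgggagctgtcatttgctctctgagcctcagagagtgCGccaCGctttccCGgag
These windows hold 4 (Plppr4), 34 (Vstm2b) and 8 (Gpr50) CG dinucleotides. The median over all 32851 RefSeq promoter windows was 7, with quartiles of 3 and 20. Vstm2b thus lay above the upper quartile, while Plppr4 and Gpr50 lay between the quartiles. The Vstm2b window lies inside the gene span, which begins at 40898011, so it does not hold the outermost start. The windows of Unc79 and Cadps also lie inside their gene spans. Any part of promoter CG content in the levels was not tested. All 9 genes matched the RefSeq table, with 12 windows in all. Akr1cl had no CG dinucleotide, Serpinf1 had 3, Pla2g2e 4, Unc79 8 and Cadps 17. The 4 alternative starts of Fgf13 held 3, 6, 37 and 40, and gene-level reads do not say which start was used.

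**Figure D1:**
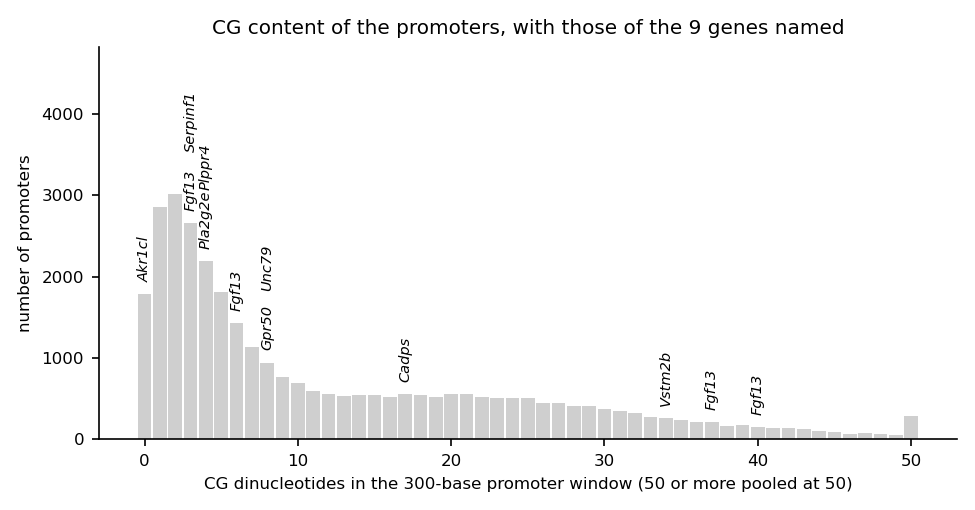
Number of CG dinucleotides (x axis) in all 32851 RefSeq promoter windows of 300 bases (bars, y axis: number of windows), with the windows of the 9 genes named above their value. The named windows run from 0 (Akr1cl) to 40 (an alternative start of Fgf13), so the genes do not share one class of promoter.

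Short motifs were searched in the same windows on both strands. TTCAGCACC, the left part of the RE1 element, which is bound by the neuronal silencer REST, was in none of the 12 windows and in 0.371% of all windows. GGACAG, the core of its right part, was in the windows of Plppr4 and Cadps and in 22.2% of all windows. The cAMP response element TGACGTCA was in none of the 12 (1.79% of all windows), and TATAAA was in 1 window of Fgf13 (13.6% of all windows). None of these motifs contains another, and a match is a description of the letters only.

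Recovered library totals lay between 20965881 and 25589318 reads, so a count of 0 allows 3 reads, or 0.117 to 0.143 CPM (counts scaled to the same library total), which covers counting error only. Tet1 stood at 0.415 to 1.48 CPM in the 6 WT libraries and 1.65 to 3.07 CPM in the 6 TKO libraries, Tet2 at 13.7 to 23.6 and 9.54 to 23.5, and Tet3 at 35.5 to 71.7 and 40.0 to 62.4. Reads over whole genes do not check a deletion of unnamed exons in 1 cell type, so TKO means the libraries labelled TET KO. The tissue was sequenced whole, and in bulk RNA fewer cells of a type and less RNA per cell cannot be told apart. ND_WT replicate 3 stood apart for these genes: it was the highest of the ND_WT libraries for 8 of the 9 genes, all but Gpr50, at 2.34 times (Serpinf1) to 8.71 times (Unc79) the mean of replicates 1 and 2. Values are therefore given with and without ND_WT replicate 3 where it enters. In the high-fat groups HFD_TKO replicate 1 lay above replicates 2 and 3 for Pla2g2e (40.2 against 16.3 and 16.2 CPM). It lay below them for Cadps (3.72 against 7.72 and 7.49 CPM) and Vstm2b (5.26 against 10.3 and 9.78 CPM). The labels call the replicates biological, and no source says whether animals were pooled.

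**Figure D2:**
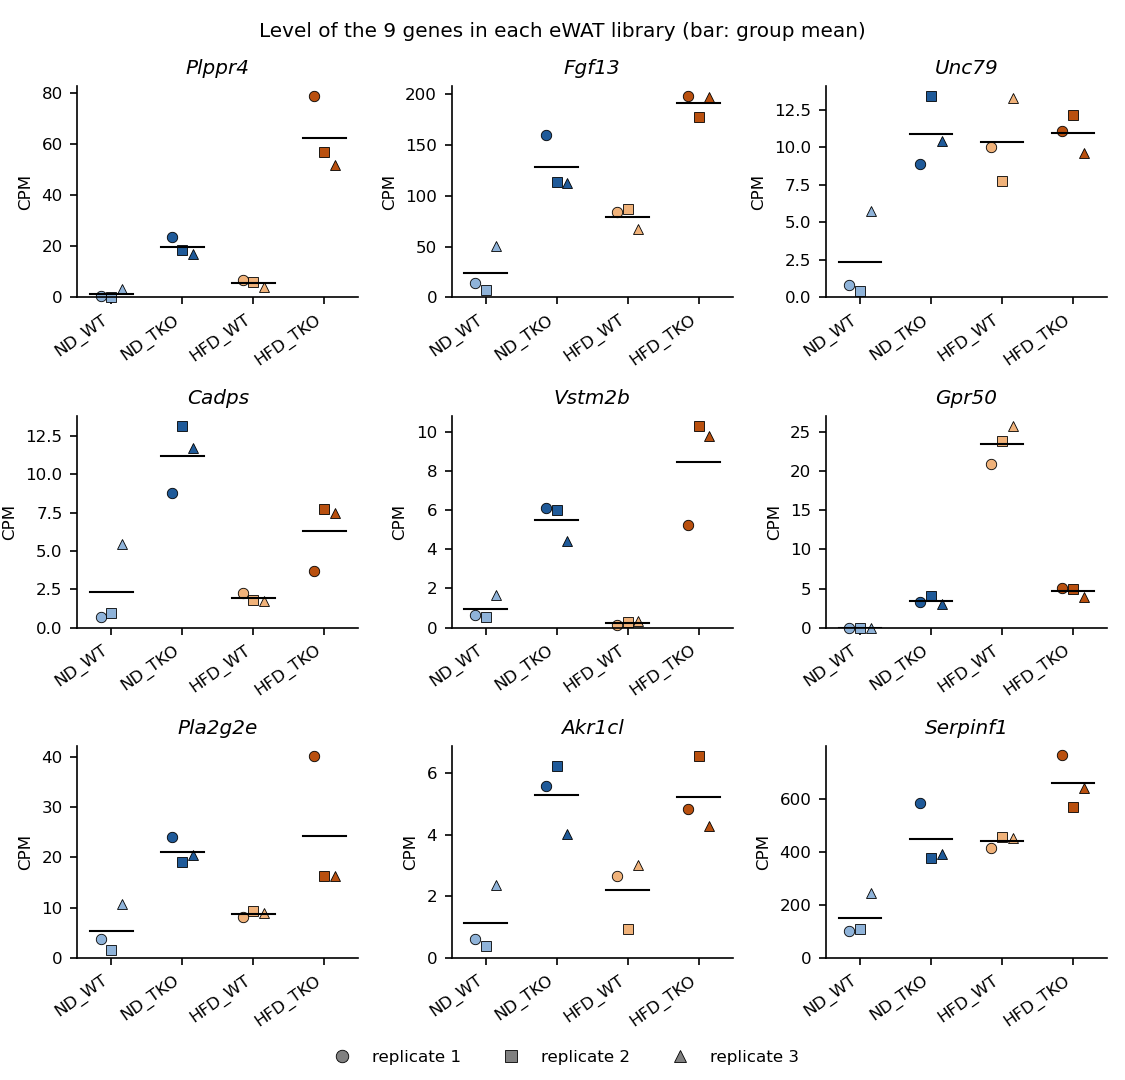
CPM (y axis, linear, starting at 0) of each gene in the 12 libraries, by group (x axis), with 1 symbol per replicate and a bar at the group mean. ND_WT replicate 3 (triangle) lies above the other ND_WT libraries in every panel except Gpr50, and Gpr50 alone has its highest values in HFD_WT.

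On the high-fat diet the genes split. Limma called 7 of the 9, against 46.7% of all tested genes: 6 rose in TKO (Plppr4, Fgf13, Cadps, Vstm2b, Pla2g2e and Akr1cl) and 1 fell (Gpr50), while Unc79 and Serpinf1 did not pass. The test was limma on log2(CPM + 1) with Benjamini-Hochberg adjustment over 15597 tested genes at 0.05. In that comparison 15.2% of all tested genes were called higher and 31.6% lower (2365 and 4923 genes; 3315 and 3996 when CPM was rescaled by trimmed mean factors). The median log2 change of the 9 genes was 1.24, and that of all tested genes was -0.10. All 3 HFD_TKO libraries lay above all 3 HFD_WT libraries for 7 genes, the 6 called and Serpinf1, against 21.0% of all tested genes, and below them for Gpr50, against 38.6%. All 9 genes passed the filter of 0.5 CPM in 3 libraries, 8 of them within HFD_WT alone. Vstm2b passed through the other 3 groups. The count of 6 was 3 without HFD_WT replicate 1, HFD_WT replicate 3, HFD_TKO replicate 1 or HFD_TKO replicate 2, and 2 without HFD_WT replicate 2.

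Plppr4 (chromosome 3 of mm10, 117319145 to 117360876, minus strand) had nearly the same log2 difference on both diets when ND_WT replicate 3 was kept. Its level was 0.716, 0.277 and 3.38 CPM in ND_WT and 23.8, 18.4 and 17.1 CPM in ND_TKO. On the high-fat diet it was 6.68, 6.20 and 3.98 CPM in WT and 78.7, 56.7 and 51.8 CPM in TKO. The genotypes did not overlap on either diet, and the HFD_TKO libraries were the highest of all 12. On the normal diet, where 9 of 9 genes were separate because of how they were chosen, 7.96% of all tested genes had every TKO library above every WT library and 15.8% every one below, and limma called 2.16% higher and 3.54% lower. The group means were 5.62 ± 1.44 and 62.4 ± 14.4 CPM on the high-fat diet (SD, n = 3 each), a log2 change of 3.26 (SE 0.37, limma adjusted p = 2.0e-05), the 5th largest rise of all tested genes. Its normal-diet log2 difference was 3.28 (SE 0.37), or 3.797 without ND_WT replicate 3. With all libraries, the log2 difference between high-fat and normal diet was 1.61 in WT and 1.601 in TKO (SE 0.37 each). The WT value was 2.14 without ND_WT replicate 3. The TKO difference on the high-fat diet minus that on the normal diet was -0.013 (SE 0.52) with that library included.

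Fgf13 (chromosome X, 59062139 to 59585572, minus strand) was the most abundant of the neuronal genes. The ND_WT libraries held 13.8, 7.70 and 50.2 CPM and the ND_TKO libraries 160, 114 and 113 CPM. The HFD_WT libraries held 83.7, 87.3 and 66.9 CPM and the HFD_TKO libraries 198, 177 and 198 CPM. All TKO libraries exceeded all WT libraries of both diets, and the HFD_WT libraries lay above the ND_WT libraries. Its high-fat log2 change was 1.27 (SE 0.46, limma adjusted p = 0.040), against a normal-diet difference of 2.77 (3.50 without ND_WT replicate 3). That call ended without any 1 of the 6 high-fat libraries (adjusted p = 0.069 to 0.11), without ND_TKO replicates 2 (0.051) or 3 (0.053) and without a filter on low values (0.065), while it was 6.1e-05 when only the high-fat groups were fitted. The high-fat libraries themselves did not overlap.

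Cadps (chromosome 14, 12372560 to 12823339, minus strand) was low in every group. The ND_WT libraries held 0.668, 0.922 and 5.43 CPM and the ND_TKO libraries 8.77, 13.2 and 11.7 CPM. High-fat values were 2.27, 1.81 and 1.73 CPM in WT and 3.72, 7.72 and 7.49 CPM in TKO. HFD_TKO replicate 1 lay nearest to WT, and the genotypes did not overlap. The log2 change on the high-fat diet was 1.27 (SE 0.42, limma adjusted p = 0.027), and the difference on the normal diet 2.14 (SE 0.42; 2.75 without ND_WT replicate 3). The high-fat call ended without HFD_WT replicates 1 (adjusted p = 0.0501), 2 (0.067) or 3 (0.071) or HFD_TKO replicates 2 (0.085) or 3 (0.086). Among TKO mice Cadps was lower in every high-fat than in every normal-diet library, with a log2 difference of -0.78 (SE 0.42).

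Unc79 (chromosome 12, 102947383 to 103184228, plus strand) did not differ beyond the spread on the high-fat diet. In normal-diet mice the WT libraries held 0.859, 0.461 and 5.75 CPM and the ND_TKO libraries 8.86, 13.4 and 10.4 CPM, a log2 difference of 2.16 (SE 0.44; 2.83 without ND_WT replicate 3). Its high-fat values were 10.0, 7.79 and 13.3 CPM in WT and 11.1, 12.1 and 9.59 CPM in TKO, which overlap. The log2 change of 0.094 had a 95% interval of -0.92 to 1.10 (limma adjusted p = 0.89). The HFD_WT libraries overlapped with ND_TKO and lay above all ND_WT libraries.

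Vstm2b (chromosome 7, 40898011 to 40930044, plus strand) was the one gene with a larger difference on the high-fat diet. Normal-diet WT libraries held 0.668, 0.554 and 1.64 CPM and the ND_TKO libraries 6.09, 6.02 and 4.45 CPM, a log2 difference of 1.77 (SE 0.25; 2.01 without ND_WT replicate 3). In HFD_WT only 3, 7 and 8 reads were counted, or 0.118, 0.310 and 0.347 CPM, below every ND_WT library. HFD_TKO held 5.26, 10.3 and 9.78 CPM. The rise of 2.86 (SE 0.25, limma adjusted p = 2.6e-06) ranked 9 among all tested genes. Its size depends on the added 1 CPM, as the change was 1.33 with 5 CPM added and 5.15 with edgeR on recovered reads. Exons of Vstm2b share 222 bases with the antisense gene A230077H06Rik, which reached at most 0.417 CPM, and the use of strand in counting is not given.

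Gpr50 (chromosome X, 71663667 to 71669257, plus strand) reversed. No read was counted in any ND_WT library, which allows up to 0.143 CPM, while ND_TKO held 3.28, 4.03 and 2.98 CPM, on average at least 23.97-fold above that limit, taken per library. HFD_WT held 21.0, 23.8 and 25.8 CPM and HFD_TKO 5.02, 4.92 and 3.98 CPM. Thus TKO libraries were all above WT on the normal diet and all below WT on the high-fat diet, with nearly the same TKO level on both. The high-fat means were 23.5 ± 2.40 and 4.64 ± 0.577 CPM (SD, n = 3 each), 5.07-fold lower in TKO (log2 change -2.12, SE 0.13, limma adjusted p = 2.5e-07). The HFD_WT mean was at least 164-fold above the same limit for ND_WT, and within TKO the log2 difference between diets was 0.35 (SE 0.13).

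Pla2g2e (chromosome 4, 138877911 to 138882817, plus strand) had a high-fat difference that leaned on 1 library. The ND_WT libraries held 3.72, 1.66 and 10.8 CPM and the ND_TKO libraries 23.996, 19.0 and 20.5 CPM. The HFD_WT libraries held 8.05, 9.38 and 8.92 CPM and the HFD_TKO libraries 40.2, 16.3 and 16.2 CPM. Genotypes did not overlap on either diet. The high-fat log2 change was 1.24 (SE 0.45, limma adjusted p = 0.040), and 0.82 (adjusted p = 0.16) without HFD_TKO replicate 1, the highest library. The call also ended without any 1 of the HFD_WT libraries (0.075 to 0.0998), without ND_WT replicate 1 (0.05003) or any 1 ND_TKO library (0.0502 to 0.054), and without the filter on low values (0.065). Its normal-diet difference was 2.06 (SE 0.45; 2.64 without ND_WT replicate 3).

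Akr1cl (chromosome 1, 65013078 to 65032759, minus strand) was low in every group. The ND_WT libraries held 0.620, 0.369 and 2.37 CPM and the ND_TKO libraries 5.58, 6.26 and 4.05 CPM. The HFD_WT libraries held 2.66, 0.930 and 3.03 CPM and the HFD_TKO libraries 4.84, 6.57 and 4.29 CPM. Genotypes did not overlap on either diet, and the TKO libraries of both diets overlapped, with a log2 difference of -0.014 (SE 0.34). The high-fat change was 1.01 (SE 0.34, limma adjusted p = 0.029), and the normal-diet difference 1.67 (SE 0.34; 2.06 without ND_WT replicate 3). The call ended without HFD_WT replicate 2, the lowest library (0.68, adjusted p = 0.13), or HFD_TKO replicates 1 (0.053) or 2 (0.095). Akr1cl exons share 494 bases with the pseudogene Gm8550 on the other strand, so its reads are uncertain.

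Serpinf1 (chromosome 11, 75410029 to 75422623, minus strand) was by far the most abundant of the 9 genes. Its 3 ND_WT libraries held 103, 107 and 245 CPM and the ND_TKO libraries 584, 376 and 393 CPM, a log2 difference of 1.66 (SE 0.28; 2.06 without ND_WT replicate 3). The HFD_WT libraries held 414, 455 and 454 CPM, which overlaps with ND_TKO, and the HFD_TKO libraries 766, 570 and 642 CPM. The high-fat libraries did not overlap, yet the change of 0.57 (SE 0.28) did not pass (limma adjusted p = 0.12). The call was made when only the high-fat groups were fitted (0.0041) and without ND_WT replicate 3 (0.0094), and with TMM-scaled CPM the change was 0.69 (adjusted p = 0.071).

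**Figure D3:**
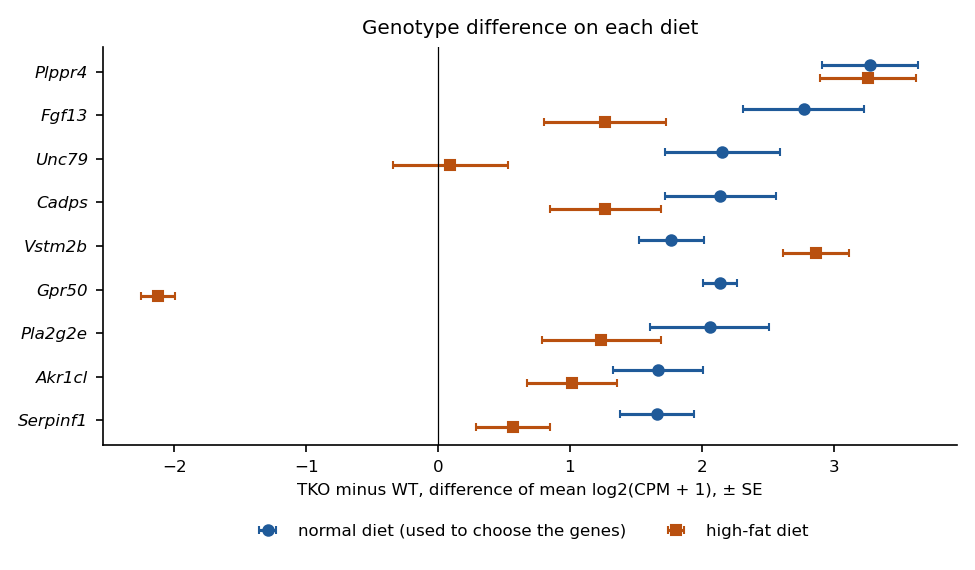
Difference of mean log2(CPM + 1) between TKO and WT (x axis, ± SE) for each gene (y axis) on the normal diet (circles, the values that chose the genes) and the high-fat diet (squares). With ND_WT replicate 3 included, Plppr4 has nearly equal values. Vstm2b is larger on the high-fat diet, Unc79 lies at 0.094 there, and Gpr50 lies at -2.12.

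Compared side by side, the difference on the high-fat diet was smaller than on the normal diet for 8 of the 9 genes, all but Vstm2b. Since the genes were chosen for large values on the normal diet, where they ranked between 2 and 23 of all tested genes by log2 difference, no test of this comparison is given. The diet differences share that limit. All HFD_WT libraries lay above all ND_WT libraries for 5 genes, Plppr4, Fgf13, Unc79, Gpr50 and Serpinf1 (41.6% of all tested genes), and below them for Vstm2b (23.8%). In TKO the corresponding genes were Plppr4 and Fgf13 above (27.7%) and Cadps below (11.7%). The HFD_WT libraries overlapped with ND_TKO for Unc79 and Serpinf1, exceeded it for Gpr50, and were lower for the other 6 genes.

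Levels per length were set by dividing CPM by the kilobases covered by the gene's GENCODE M21 exons. In HFD_TKO this gave 280 ± 41.8 CPM per kb for Serpinf1, 47.6 ± 2.99 for Fgf13, 26.4 ± 15.1 for Pla2g2e, 8.74 ± 2.01 for Plppr4 and 3.07 ± 1.01 for Vstm2b (SD, n = 3). The remaining 4 genes were at 1.51 ± 0.188 (Gpr50), 1.24 ± 0.282 (Akr1cl), 0.767 ± 0.0894 (Unc79) and 0.419 ± 0.149 (Cadps) CPM per kb. Gpr50 and Akr1cl, neighbours in this order, differed by less than the SD of Akr1cl. The 4 genes known from neurons thus spread over this range, with Fgf13 next to Serpinf1 and Cadps lowest.

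The label of these genes was set against markers of neurons. Of 19 neuron markers in the table, 7 had at most 3 reads in every library, among them the vesicle calcium sensor gene Syt1, the migrating-neuron gene Dcx, and Th and Dbh, the enzymes that make noradrenaline in sympathetic neurons, whose cell bodies lie outside fat. The summed level of the list was 18.7 to 24.97 CPM across the ND_WT libraries, 18.5 to 22.2 CPM across ND_TKO, 36.5 to 43.7 CPM across HFD_WT and 17.5 to 23.6 CPM across HFD_TKO. Of the 10 tested markers limma called 0 on the normal diet (0 at an unadjusted p of 0.05, median 0.07), where 5.70% of all tested genes were called. On the high-fat diet it called 2 higher and 3 lower (median -0.13), near the 15.2% and 31.6% of all tested genes. The members that moved went apart: the neurofilament genes Nefl and Nefm rose by 0.96 and 0.78 from means of 0.0556 and 0.0574 CPM in HFD_WT, both under the 3-read limit, while the microtubule genes Map2 and Tubb3 and the synaptic vesicle gene Syn1 fell by 2.63, 0.63 and 1.10. Other markers of the list were detected in every library, Stmn2 at 4.14 to 13.7 CPM and Uchl1 at 2.17 to 8.54 CPM, and Map2 and Syn1 had means of 16.6 and 3.08 CPM in HFD_WT. The list was thus detected in part, and its part in the levels of the 9 genes was not tested.

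Markers of other cells were measured in the same way. The 12 Schwann cell and glia markers summed to 52.3 to 52.9 CPM in ND_WT and 41.4 to 43.8 in ND_TKO, and to 56.3 to 68.5 in HFD_WT and 40.9 to 45.9 in HFD_TKO. Most of each sum was Mbp, with means of 37.0, 29.3, 49.7 and 33.5 CPM in these groups, in the same order. On the normal diet limma called 0 of 7 tested (2 at an unadjusted p of 0.05). Of 7 tested, 2 were lower and 0 higher in HFD_TKO by limma, and also by edgeR, DESeq2 and limma-voom (3 at an unadjusted p of 0.05 in either direction), near the 31.6% of all tested genes called lower. Of 14 epididymal epithelium markers 11 had at most 3 reads in every library, the list summed to 0.237 to 4.08 CPM over all libraries, and of 2 tested 0 were called on the high-fat diet by limma (0 at an unadjusted p of 0.05), edgeR, DESeq2 or limma-voom. The 12 adipocyte markers summed to 50674 to 63536 CPM across ND_WT, 57003 to 62225 CPM across ND_TKO, 25416 to 28068 CPM across HFD_WT and 47413 to 48003 CPM across HFD_TKO. On the normal diet 3 of them were lower in TKO, against 3.54% of all tested genes. On the high-fat diet 10 were higher, against 15.2%, the adrenergic receptor gene Adrb3 by 3.58 and the glucose transporter gene Slc2a4 by 1.999. Limma called 0 of 6 mesothelium markers on the high-fat diet (1 at an unadjusted p of 0.05, 0 by edgeR, DESeq2 or limma-voom) and 0 of 6 endothelium markers (2 at an unadjusted p of 0.05, 2 higher by each of the other tools). The mesothelium markers summed to 91.8 to 123 CPM in HFD_WT and 41.7 to 193 CPM in HFD_TKO, lowest in HFD_TKO replicate 1. All 10 macrophage markers were lower on the high-fat diet, with sums of 6013 to 7579 CPM in HFD_WT and 1119 to 1316 in HFD_TKO. Of 12 progenitor and stromal markers 8 were lower there and 1, Col15a1, higher. The shares of all tested genes were 31.6% lower and 15.2% higher.

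**Figure D4:**
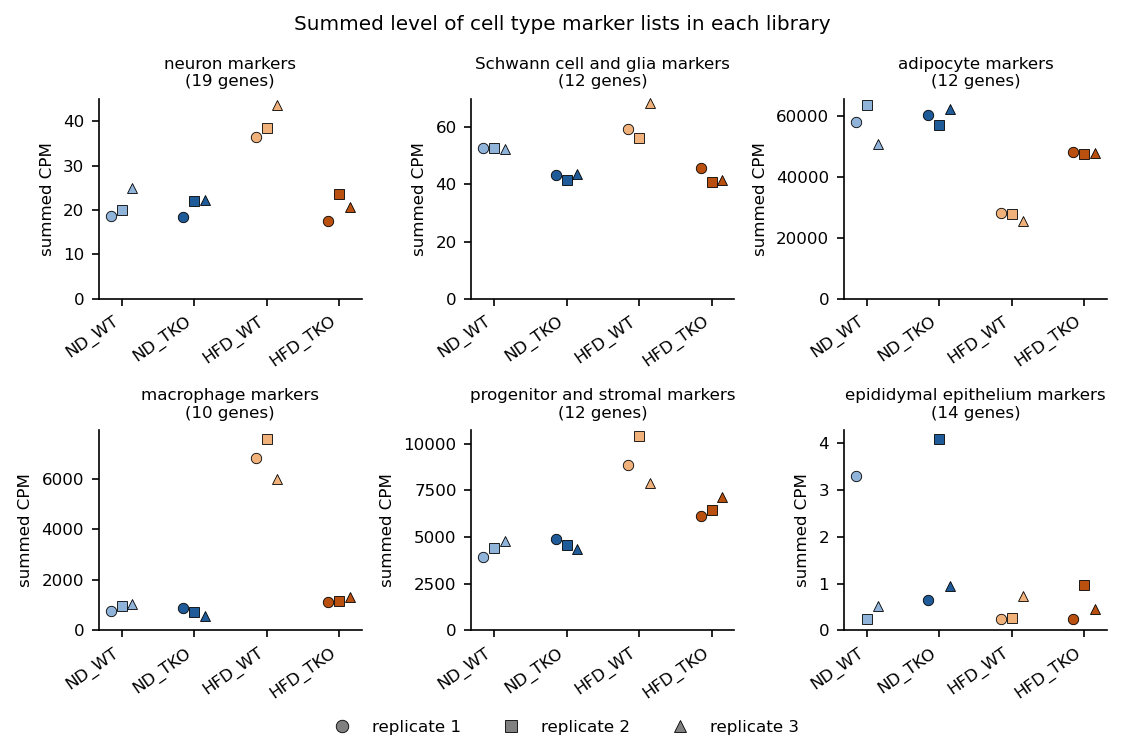
Summed CPM (y axis, linear, starting at 0) of 6 cell type marker lists in each of the 12 libraries, by group (x axis), 1 symbol per replicate. Adipocyte sums are lowest and macrophage sums highest in HFD_WT, and the neuron marker sum is alike in ND_WT and ND_TKO.

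On the high-fat diet the adipocyte marker sum therefore moved with the genes that rose. When every library was rescaled to the same adipocyte marker sum, which shifted the median of all genes by -0.73, Plppr4 (2.54, limma adjusted p = 1.7e-05) and Vstm2b (2.62, adjusted p = 1.2e-06) were still called higher and Gpr50 lower (-2.90, adjusted p = 9.6e-09). The other 4 genes that rose were not called under that scaling: Fgf13 (0.45), Cadps (0.68), Pla2g2e (0.48) and Akr1cl (0.42) had adjusted p-values of 0.14 to 0.39. Serpinf1 was at -0.25 and Unc79 at -0.67, neither of them called. On the normal diet the adipocyte sums of both genotypes overlapped. Macrophage and stromal marker sums were high where Gpr50 was high, in HFD_WT. On the normal diet, where Gpr50 was higher in TKO, both sums overlapped between the genotypes. The macrophage sums there were 759 to 1056 CPM in WT and 568 to 897 CPM in TKO. The stromal sums were 3915 to 4755 CPM in WT and 4352 to 4884 CPM in TKO. Single markers did move on the normal diet. Of the stromal markers limma called Lum (1.42, adjusted p = 4.3e-05) and Col15a1 (0.70, adjusted p = 0.027) higher in TKO. It called Cd34 (-0.46, adjusted p = 0.033) and the macrophage marker Cd14 (-0.97, adjusted p = 0.017) lower. Of all tested genes 2.16% were called higher there and 3.54% lower. The part of macrophage and stromal markers in the level of Gpr50 was not tested.

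Relatives and partners were read from lists of related genes. Vstm2a, the closest relative of Vstm2b in the table and a gene of fat cell precursors, was higher in TKO on both diets. The ND_WT libraries held 0.144, 0.0926 and 0.411 CPM and the ND_TKO libraries 1.43, 1.39 and 2.001 CPM. The HFD_WT libraries held 0.0785, 0.0447 and 0.130 CPM and the HFD_TKO libraries 0.791, 1.84 and 2.60 CPM. It rose by 1.10 on the normal diet (limma adjusted p = 0.014) and by 1.28 on the high-fat diet (adjusted p = 5.2e-04), with no overlap on either. Its partner in name Vstm2l reached at most 1 read. The melatonin receptor genes Mtnr1a and Mtnr1b had 0 reads in every library, so Gpr50 was the detected member of its family.

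Of the sodium leak channel complex, the pore gene Nalcn had means of 2.62 and 1.69 CPM in WT and TKO on the normal diet and 1.33 and 1.18 CPM on the high-fat diet, and was called on neither diet by limma (adjusted p = 0.23 and 0.74), nor by edgeR, DESeq2 or limma-voom on the high-fat diet. Unc80, the partner of Unc79, and Fam155a fell below the filter. Among 3 other FGF homologous factors Fgf11 rose by 1.06 in HFD_TKO and Fgf12 fell by 0.59, while Fgf14 was at 0.047 (adjusted p = 0.86). Fgf12 was not called by edgeR or DESeq2, and reached at most 1.13 CPM. Of 12 tested genes of vesicle release 3 rose on the high-fat diet, Rab3a (0.58), Unc13a (0.43) and Unc13b (0.35), and 2 fell, among them Unc13d (-1.59), with a median of 0.13, against 15.2% and 31.6% of all tested genes called higher and lower. Of the same list edgeR and DESeq2 each called 6 higher and 2 lower, and limma-voom 5 and 2. Vamp2 alone was called on the normal diet, lower by 0.38.

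For Plppr4, relatives Plppr1 and Plppr5 had at most 3 reads, Plppr2 rose by 0.73 and the lipid phosphatase genes Plpp1 and Plpp2 moved by -0.83 and 0.33 on the high-fat diet, while on the normal diet Plpp3 rose by 0.43. Of 3 other secreted phospholipases A2 tested Pla2g12a rose by 0.93 and Pla2g5 fell by 1.44 on the high-fat diet. Pla2g5, which lies 14.3 kb from Pla2g2e, thus went the other way there. None of 5 tested Akr1c family genes was called by limma on the high-fat diet (0 at an unadjusted p of 0.05), while edgeR and DESeq2 each called 1 and limma-voom called 2. Among the receptors proposed for PEDF, on the high-fat diet Plxdc1 fell from 34.5 to 2.47 CPM (log2 change -3.37) and Plxdc2 by 1.06. The lipase gene Pnpla2 rose there by 1.16, and Rpsa was not called (-0.18, limma adjusted p = 0.076). On the normal diet limma called 0 of these 4, with Plxdc1 at 2.55 CPM in WT and 2.18 CPM in TKO (adjusted p = 0.66).

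The 2 tested genes nearest on each side of each gene were examined as neighbours, 36 in all. They lay between 4.32 kb (Smyd4) and 1723 kb (Arhgef6) away, so many are not adjacent loci. On the high-fat diet 4 (11.1%) were higher and 12 (33.3%) lower, near the 15.2% and 31.6% of all tested genes, and their median change was -0.16. No neighbour of Plppr4 or Cadps was called, and the called neighbour of Vstm2b, AI987944, fell by 0.28. Beside Gpr50, which fell, Cd99l2 (0.52), Hmgb3 (0.35) and Prrg3 (0.71) rose. Beside Pla2g2e Otud3 rose by 0.42 and Tmco4 fell by 0.51 as Pla2g5 did. The called neighbours of the other genes fell. At Fgf13 they were Arhgef6 (-1.11) and F9 (-1.07), 1723 and 414 kb away, and at Unc79 Btbd7 (-0.35) and Asb2 (-0.56). At Akr1cl they were Fzd5 (-0.46), Plekhm3 (-1.16) and Pikfyve (-0.34), and at Serpinf1 Smyd4 (-0.42) and Wdr81 (-0.44). On the normal diet 2 neighbours were called, Palmd (-0.91) and 4930455H04Rik (-0.78), both lower, at 350 and 335 kb from Plppr4.

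Over the 12 libraries the genes resembled each other to different degrees, as a description over points that share libraries and groups. Pearson's r of log2(CPM + 1) was 0.97 between Fgf13 and Serpinf1, 0.93 between Plppr4 and Fgf13, and 0.01 and -0.16 for Gpr50 with Cadps and Vstm2b. Of all other tested genes Lum, the matrix proteoglycan lumican of stromal cells, was most like Gpr50 (r = 0.99), with means of 67.2 and 181 CPM in WT and TKO on the normal diet and 485 and 217 CPM on the high-fat diet, followed by Ryr2 (0.97). Sparc, a matricellular protein gene, was most like both Fgf13 (0.97) and Serpinf1 (0.97), with Clec16a (0.96) and Ppic (0.96) next. Rnf11 (0.98) and Serinc1 (0.97) were most like Plppr4, Notch4 (0.98) and Tenm4 (0.97) most like Vstm2b, and Thbs1 (0.96) and Fkbp9 (0.95) most like Cadps. For Unc79 the nearest were Gdap2 (0.96) and Kcna5 (0.95), for Pla2g2e Atic (0.97) and Optc (0.96), and for Akr1cl Fam174b (0.96) and Narf (0.94).

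Across 23 alternative settings the high-fat result of Plppr4, Vstm2b and Gpr50 kept its direction and its call in all of them. That of Akr1cl did so in 19, Cadps in 17, and Fgf13 and Pla2g2e in 13 each.

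**Figure D5:**
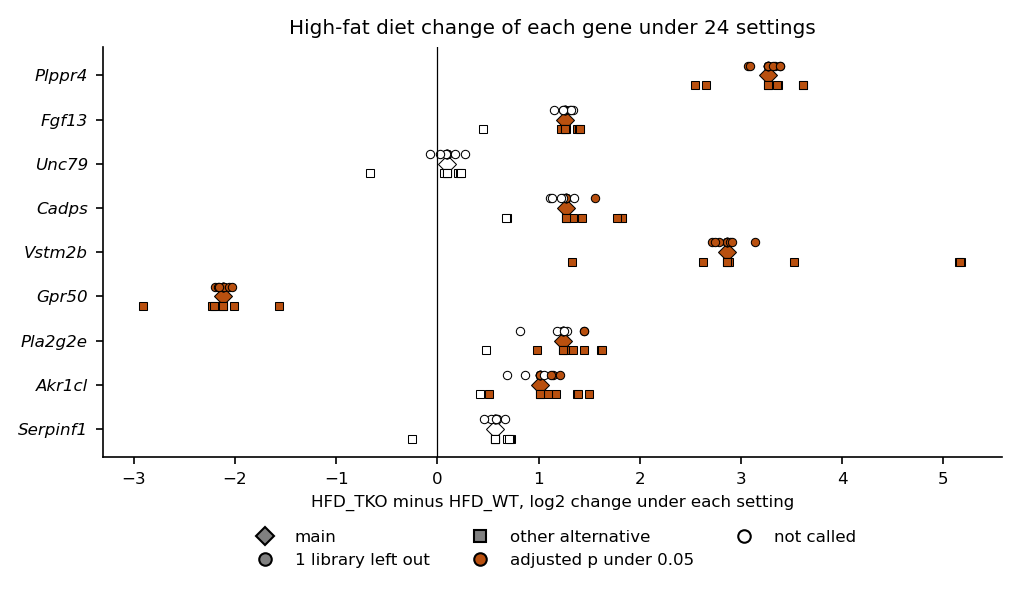
Log2 change between HFD_TKO and HFD_WT (x axis) for each gene (y axis) as tested (diamond), with 1 library left out (circles) and under other settings (squares), filled where the adjusted p was under 0.05. Plppr4, Vstm2b and Gpr50 are filled throughout, and Unc79 is never filled.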

How the data were processed

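RNA of whole eWAT was measured in 12 libraries, 3 in each of 4 groups taken from the library titles. The authors deposited 1 table of CPM named raw CPM per the file headers. Per the submitters' processing notes the tools included STAR 2.7.3a, featureCounts 2.0.0 and DESeq2, and the build mm10, with no role given. Annotation release, strand setting and multi-mapped reads are not given in the sources used here. The table lists 25232 genes, and 3 without a symbol (at most 0.0679% of CPM) were left out. Values were whole multiples of 1 read after an offset of 0.01 read: 100% came out whole within 0.05 read, which gave the recovered reads.

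The main test was limma 3.58.1 in R 4.3.3 with trend = TRUE on log2(CPM + 1), a scale on which changes of low genes come out too small. The 12 libraries shared 1 fit of 4 group means (8 residual degrees of freedom), over genes with at least 0.5 CPM in at least 3 libraries. The fit was tested on simulated data. Alternatives used edgeR 4.0.16 and DESeq2 1.42.0 on recovered reads, limma-voom, other pseudocounts, filters and scalings, a replicate block and leaving out each library. P-values set a group difference against the spread between these libraries, which the main test pooled over the 4 groups. Replicate numbers did not pair samples.

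The members, the lists of relatives and markers and the tests were chosen with earlier results of these data known. Named genes were the 9 members, Tet1 to Tet3, at most 4 called genes per list, called neighbours, and the 2 genes most like each member. Tubb3, Unc13b, Vamp2, Plpp3, Col15a1, Cd34, Cd14 and Rpsa were named after their values were seen. Some listed genes are not reported by name here. Coordinates are RefSeq's for GRCm38.p6, the build mm10, matched by Entrez identifier; exon lengths and overlaps are from GENCODE M21.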

Additional observations from a re-analysis of the deposited data

Results flagged for a closer look

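Gpr50 differed between diets in direction. On the normal diet every TKO library lay above every WT library (log2 difference 2.14). No read was counted in ND_WT, so the size of that difference depends on the added 1 CPM. The ND_TKO mean was at least 23.97-fold above the limit for ND_WT. On the high-fat diet every TKO library lay below every WT library (log2 change -2.12, 4.64 against 23.5 CPM). The difference between the diets was not tested, because the normal-diet values chose the gene.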

How the results depend on the processing

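Most members rested on few reads and 3 libraries a group, and the spread pooled over 4 groups was raised by ND_WT replicate 3. With 1 library left out in turn, 2 to 7 of the 9 genes were called higher and 1 lower on the high-fat diet, and 1881 to 2650 of all tested genes were higher and 4005 to 5159 lower. The change of Unc79 then ranged from -0.078 (without HFD_WT replicate 2) to 0.27. Without a filter on low values 4 genes were higher, and with only the high-fat groups fitted 7. Scaling to adipocyte markers left 2 genes higher, 223 of all genes higher and 12590 lower, and turned Unc79 (-0.67) and Serpinf1 (-0.25). All genes called higher numbered 3612 with edgeR, 3608 with DESeq2 and 3565 with limma-voom, and the median of all genes lay 0.12, 0.12 and 0.11 higher in them. The cause of these moves was not tested. The replicate block gave 6 genes higher and 1 lower, with 2308 and 4806 of all tested genes, and changed no call of the 9. Correlations of deviations of same-numbered high-fat libraries were 0.21, -0.34 and -0.26, so the numbers were not used as pairs.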
